A study of Mus musculus with 4 samples.

Results

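The 10 genes described here belong to the unfolded protein response and the integrated stress response: Hspa5, Hsp90b1, Herpud1, Xbp1, Atf4, Ddit3, Trib3, Asns, Chac1 and Ddit4. They were chosen by symbol, as known genes of these pathways. The rule itself uses no measured value, but the choice was made with earlier results of these data known. All 10 were among the 53647 genes counted and among the 15173 genes with enough reads to be tested. The question was how their transcripts responded when myotubes received EDA-A2, a ligand of the tumour necrosis factor family that signals through the receptor EDA2R to NFκB. Bulk RNA sequencing compared 2 libraries of control myotubes with 2 libraries of EDA-A2-treated myotubes. Myoblasts came from limb muscles of wild-type (WT) mouse pups aged 2 to 3 days and were differentiated in horse serum. The treated myotubes received 250 ng/ml EDA-A2 for 24 h, the control libraries carry the same time in their titles, and all cells were collected 72 h after differentiation. The sources used here do not say whether the replicates came from separate isolations or cultures, so the p-values measure the spread between these libraries, which may be technical.

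Cells sense misfolded protein in the endoplasmic reticulum (ER) through the membrane proteins IRE1, PERK and ATF6. IRE1 splices the Xbp1 transcript into the form that encodes an active transcription factor, ATF6 is cut to release another, and together these raise chaperones and degradation factors of the ER. PERK is also a kinase of the integrated stress response: it and the kinases GCN2, PKR and HRI phosphorylate the translation factor eIF2, which lowers general protein synthesis but favours translation of Atf4. ATF4 and its partner CHOP, the product of Ddit3, then drive genes of amino acid supply, redox balance and growth control. In skeletal muscle, stress of this kind is known to accompany differentiation, exercise, disuse and mitochondrial disease. Splicing, phosphorylation and translation are not measured by gene counts, so the values below are transcript levels only.

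Response elements known for these pathways were searched in the 250 bases before the start of each gene's canonical transcript, since they show which of the 10 promoters carry the letters of each arm. The promoters were read from the GRCm39 genome with the starts of the GENCODE annotation, on both strands, and 21626 promoters of protein-coding genes served as background. The ER stress element ERSE, read as CCAAT and CCACG with 9 bases of any kind between them, was in 2 of the 10 promoters and in 0.116% of all. Its shorter form ERSE-II, ATTGG and CCACG with 1 base between them, was in 1 of the 10 and in 0.0555% of all. The composite element of C/EBP and ATF factors (TGATGNAA), through which ATF4 and CHOP are known to act, was in 3 of the 10 and in 3.4% of all. The other motifs searched were the cAMP response element core TGACGTCA, found in 0 of the 10 and in 1.69% of all, the element UPRE (TGACGTGG), found in 0 and in 0.56%, and TATAAA, found in 1 (Trib3) and in 11.9%. No 2 of the matches shown here overlap. The 5 promoters with a stress element are shown 5′ to 3′ on the strand of the gene, with each match in capitals and 10 further bases at either end.
Hspa5: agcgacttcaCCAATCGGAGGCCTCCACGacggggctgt
Hsp90b1: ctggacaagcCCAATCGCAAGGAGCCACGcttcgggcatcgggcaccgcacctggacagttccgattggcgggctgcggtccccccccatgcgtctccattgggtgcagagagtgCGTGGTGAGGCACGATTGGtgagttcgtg
Herpud1: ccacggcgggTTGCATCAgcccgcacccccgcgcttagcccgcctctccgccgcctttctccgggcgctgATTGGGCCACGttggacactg
Ddit3: ttgccaaacaTTGCATCAtccccgcccc
Chac1: ttccctgccgTTGCATCActcctgccag
In Hspa5 (chr2:34662027-34662065, plus strand) the ERSE ran from -67 to -49, counted from the transcript start. Hsp90b1 (chr10:86541387-86541530, minus strand) held an ERSE from -142 to -124 and another, reading on the opposite strand, from -37 to -19. Herpud1 (chr8:95112935-95113025, plus strand) held both an ERSE-II, from -32 to -22, and a composite element that reads on the opposite strand, from -92 to -85. The composite elements of Ddit3 (chr10:127126351-127126378, plus strand) and Chac1 (chr2:119181520-119181547, plus strand) also read on the opposite strand, from -199 to -192 and from -159 to -152. None of these stress elements was found in the windows of Xbp1, Atf4, Trib3, Asns and Ddit4. This holds for 1 start per gene. On the minus strand, the start used for Asns was 7693719, inside a gene that reaches 7728461. For Trib3 it was 152186012, inside a gene that reaches 152191958, and for Ddit4 59787662, inside a gene that reaches 59788492. Other starts and bases outside the windows were not searched, so these genes may carry such elements elsewhere. A match describes the letters of a window and is not a measured binding site.

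Counts on genes came to between 29444155 and 29746863 read pairs per library, so that the floor of 3 counts lay at 0.101 to 0.102 CPM, the count scaled to the library total. The transcripts of differentiated muscle were abundant: 8 of 8 myotube markers were measured, with a summed level of 20841 and 21223 CPM in the control and of 16166 and 16315 CPM in the EDA-A2 libraries, and Myh3, Myh8 and Acta1 fell. Markers of fibroblasts summed to 1628 to 1725 CPM in control and to 1639 and 1642 CPM after EDA-A2. Of these 6 markers, 4 had enough reads to be tested, Col3a1 was highest and Lum was at 0 in all 4 libraries. Markers of macrophages summed to at most 12.9 CPM and those of endothelial cells to at most 6.35 CPM. Markers of dividing cells summed to 674 and 815 CPM in control and to 765 and 790 CPM after EDA-A2. Of 5 myoblast markers, Vcam1 and Cdh15 passed the test in opposite directions. The part of these cell types in the results below was not tested, and in bulk RNA fewer cells of a type and less RNA per cell cannot be told apart. The treatment itself was visible in Nfkb2, the precursor of an NFκB subunit, which had 1008 and 1005 normalised counts in control and 3660 and 3808 in EDA-A2-treated myotubes.

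None of the 10 stress genes passed the test. With edgeR's quasi-likelihood test and Benjamini-Hochberg adjustment at 0.05, 0 of the 10 were called, against 4.57% of all genes tested (2.45% higher and 2.13% lower) and 6.94% of the 5536 genes at or above the level of the lowest of them, Chac1. At an unadjusted p under 0.05 by edgeR there was 1, Asns, against 15.6% of all genes tested and 21.1% of those 5536 genes. The DESeq2 Wald test also called 0 of the 10. Of the 10 log2 fold changes, 4 were above 0 and 6 below, with a median of -0.04 beside -0.00 for all genes tested. Their median size without sign was 0.10, against 0.11 for all genes and 0.08 for the 5536 genes of like level. The 95% interval held 0 for 9 of the 10. Taken over all 10 intervals, the highest upper bound was a 1.36-fold level after EDA-A2, for Chac1, and the lowest lower bound a 0.770-fold level, for Asns. The smallest change called among the genes of like level was 0.24 in log2, and each of the 10 genes had a smaller estimate than that. The groups did not overlap for 3 of the 10 genes, against 45% of all genes tested and 50% of those of like level.

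**Figure D1:**
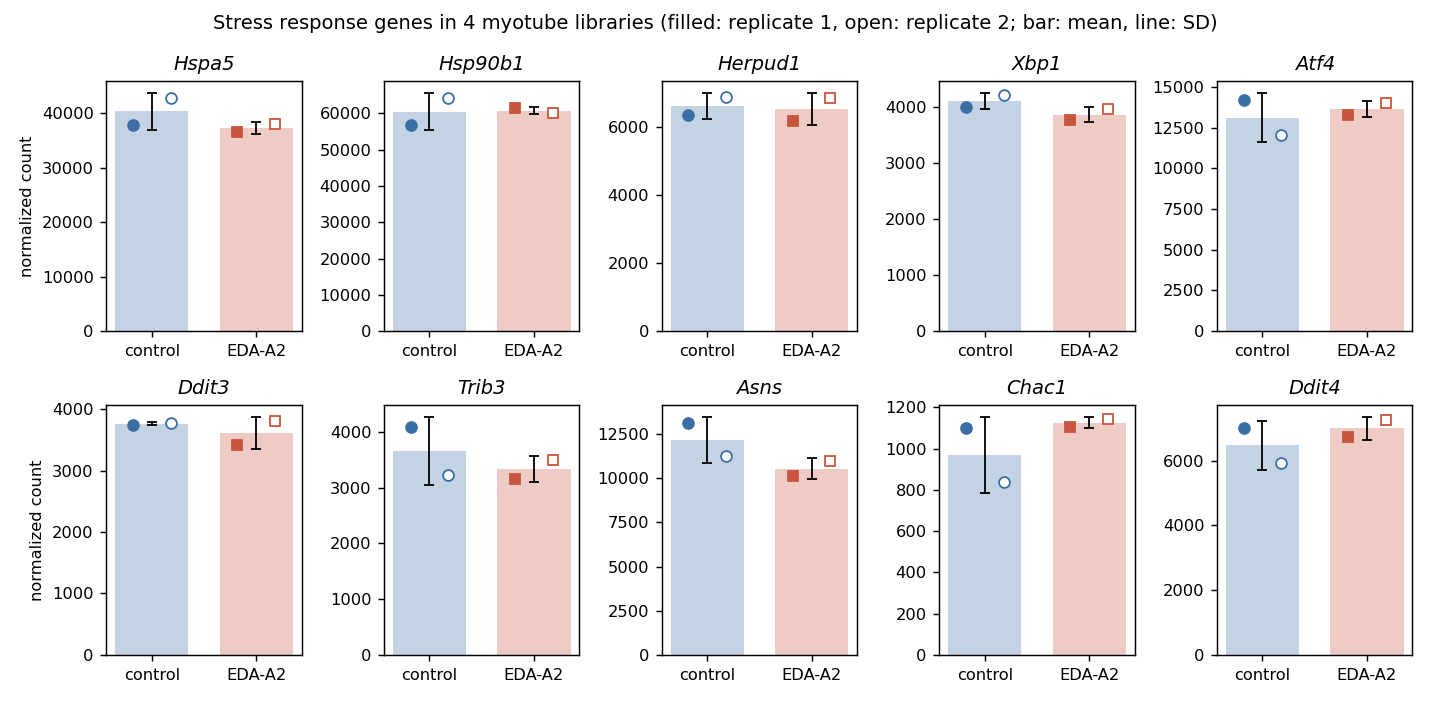
Normalised counts (linear axes from 0) of the 10 stress genes in 2 control and 2 EDA-A2 libraries, each panel with its own scale. Filled points are replicate 1, open points replicate 2, bars the mean and lines the SD (n = 2), and in 7 of the 10 panels the points of the groups overlap.

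The first arm comprised the ER chaperones and the factors that control and relieve ER stress. Hspa5 (ENSMUSG00000026864, chromosome 2, 34661982 to 34668880, plus strand) encodes BiP, the main Hsp70 chaperone of the ER, which also holds the stress sensors inactive. It had 37887 and 42698 normalised counts in control and 36456 and 37964 after EDA-A2. The treated range reached just above the lower control, and the log2 fold change was -0.11 ± 0.08 (SE), with an adjusted p of 0.535 by edgeR. Hsp90b1 (ENSMUSG00000020048, chromosome 10, 86526073 to 86541446, minus strand) encodes GRP94, the Hsp90 chaperone of the same compartment. It had 56836 and 64127 counts in control and 61465 and 60021 after EDA-A2. Both treated libraries lay between the controls, and the log2 fold change was 0.01 ± 0.08, with a 95% interval of -0.16 to 0.17. For Hspa5 the interval was -0.28 to 0.05, so that neither of these chaperones, whose promoters carry the ERSE shown above, passed the test.

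Herpud1 (ENSMUSG00000031770, chromosome 8, 95113022 to 95123141, plus strand) encodes an ER membrane protein that helps to degrade misfolded proteins. It had 6351 and 6900.4 counts in control and 6197 and 6868 after EDA-A2, so that the groups overlapped almost fully. Its log2 fold change was -0.02 ± 0.07, with an adjusted p of 0.944. Xbp1 (ENSMUSG00000020484, chromosome 11, 5470606 to 5483027, plus strand) had 4011 and 4212 counts in control and 3771 and 3963.5 after EDA-A2. Here both treated libraries were below both controls, by little, a pattern that 22.2% of all genes tested also had. The log2 fold change of Xbp1 was -0.09 ± 0.07, with an adjusted p of 0.618, and gene counts do not tell its spliced form from the unspliced.

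The second arm was the integrated stress response, from its transcription factors to their targets. Atf4 (ENSMUSG00000042406, chromosome 15, 80139372 to 80141745, plus strand), the factor at its centre, had 14187 and 12042 counts in control and 13307 and 13993 after EDA-A2. The treated libraries lay within the control range, and the log2 fold change was 0.06 ± 0.08, with an adjusted p of 0.823. Ddit3 (ENSMUSG00000025408, chromosome 10, 127124268 to 127132163, plus strand), which encodes CHOP, a factor that promotes cell death under lasting ER stress, had 3745 and 3775 counts in control and 3422 and 3798 after EDA-A2. The controls were almost equal and lay between the treated libraries, at a log2 fold change of -0.06 ± 0.07 (adjusted p of 0.787). Trib3 (ENSMUSG00000032715, chromosome 2, 152179337 to 152191958, minus strand), a pseudokinase that is induced by ATF4 and CHOP and restrains them, had 4091 and 3226 counts in control and 3161 and 3489 after EDA-A2. Its groups overlapped, and the log2 fold change was -0.14 ± 0.10, with an adjusted p of 0.566.

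Among the enzymes and growth regulators downstream, Asns and Chac1 showed the largest estimates, with opposite signs. Asns (ENSMUSG00000029752, chromosome 6, 7671667 to 7728461, minus strand), the asparagine synthetase, had 13091 and 11224 counts in control and 10104 and 10978 after EDA-A2. Both treated libraries were below both controls, yet the treated and control libraries nearest each other differed by little. The log2 fold change was -0.21 ± 0.08 with a 95% interval of -0.38 to -0.03, and the edgeR p of 0.0219 became 0.204 after adjustment. Chac1 (ENSMUSG00000027313, chromosome 2, 119180757 to 119184866, plus strand) encodes an enzyme that breaks down glutathione. It had 1100.4 and 839 counts in control and 1106 and 1145 after EDA-A2, so that control replicate 1 was almost level with the treated libraries and control replicate 2 stood below. Its log2 fold change was 0.22 ± 0.11 with a 95% interval of -0.01 to 0.44, and the edgeR p of 0.0639 became 0.367 after adjustment. The pattern of both treated libraries above both controls was seen in 22.8% of all genes tested. Ddit4 (ENSMUSG00000020108, chromosome 10, 59785491 to 59788492, minus strand), which encodes the mTORC1 inhibitor REDD1, had 7015 and 5937 counts in control and 6746 and 7257 after EDA-A2. Its groups overlapped, at a log2 fold change of 0.11 ± 0.08 (adjusted p of 0.586).

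**Figure D2:**
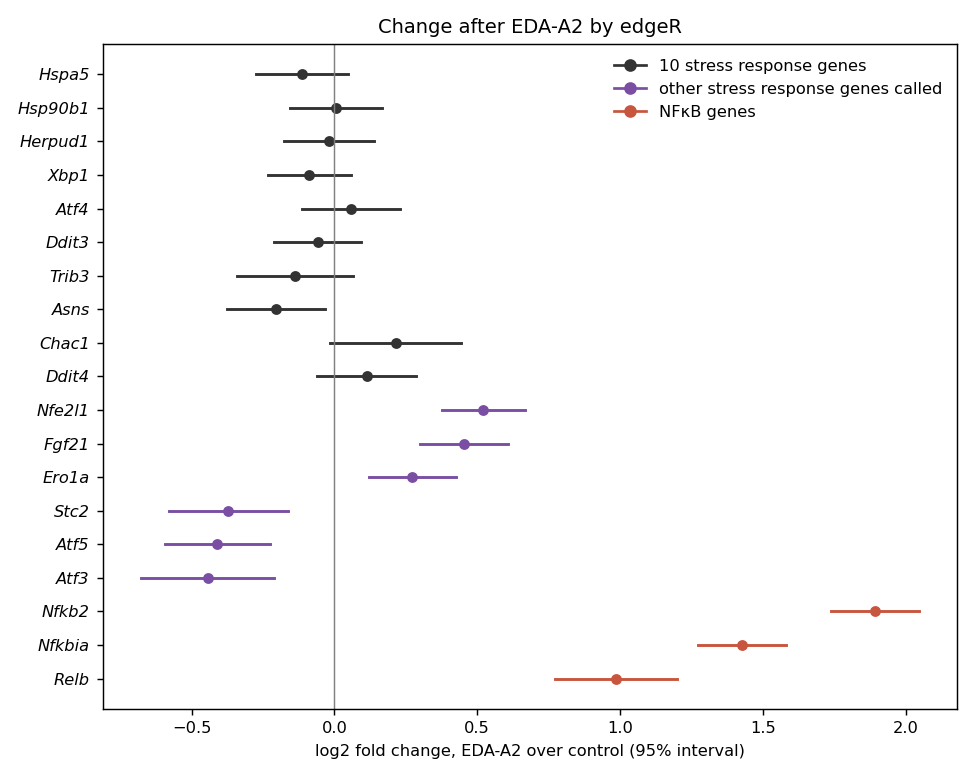
Log2 fold change, EDA-A2 over control, with its 95% interval from edgeR (2 libraries per group), for the 10 stress genes (black), the 6 other stress response genes that passed the test (purple) and 3 NFκB genes (red). The intervals of the 10 genes lie between -0.38 and 0.44 and those of the NFκB genes lie wholly to their right.

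The reads of some of these genes share their place with other genes. In the GENCODE annotation, exons of Hspa5 overlap those of Rabepk on the opposite strand over 2457 bases, those of Xbp1 overlap Ccdc117 over 1526 bases and those of Ddit3 overlap Mars1 over 3576 bases. Smaller overlaps of exons on the opposite strand were found for Hsp90b1, Herpud1 and Asns, and none for Atf4, Trib3, Chac1 and Ddit4. The libraries were stranded, but the strand option of the counting is not given in the sources used here, so the values of the overlapping genes are less certain. A search of the genome found no copy of 9 of the 10 transcripts with at least 200 bases at 90% identity, and for Hsp90b1 it found 2, the longer matching 228 of 2830 bases. The annotation has a second Ddit3 gene, which shares 105 exon bases with the first and had 0 counts in all 4 libraries.

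The 10 genes were expressed at very different levels from each other. On the TPM scale, which divides each count by the length of all exons of its gene, Hsp90b1 was highest at 1604 ± 108 (mean ± SD over all 4 libraries), followed by Hspa5 at 1127 ± 66.1. The factor Atf4 came next at 911.9 ± 73.3 TPM, above Ddit3 at 106.7 ± 3.85 and Xbp1 at 93.0 ± 2.74 on this scale. Between them lay Ddit4 at 401.7 ± 39.6, Herpud1 at 274.6 ± 15.7, Trib3 at 166.3 ± 16.5 and Asns at 156.4 ± 12.5 TPM. Chac1 was the lowest at 65.4 ± 9.83 TPM. The ranges over the libraries of Trib3 and Asns overlapped and no other neighbours did. The order of Trib3 and Asns, and that of Ddit3 and Xbp1, turned when the longest transcript was used as the length, so these pairs have no settled order. Ddit3 has 5579 exon bases and a longest transcript of 5314, but its canonical transcript has only 979. Xbp1 has 6931 exon bases against 1969 in its canonical transcript, Asns 11709 against 4901 and Hsp90b1 6113 against 2830. The order of the 10 genes as a whole therefore depends on the length used and is not settled. Levels by canonical length were not computed.

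For most of the 10 genes the control libraries differed from each other by more than the group means did. For 8 of the 10 genes the log2 difference between the control libraries was larger than the log2 fold change after EDA-A2, the exceptions being Xbp1 and Ddit3. Over the genes of like level the median size was 0.084 for the control difference and 0.078 for the log2 fold change. A difference between 2 single libraries also varies more than one between group means. The share of all genes with this pattern was not counted, so it is not shown to be particular to the 10. The difference also ran in opposite ways in the arms: 5 of the 6 genes of the integrated stress response were higher in control replicate 1, and 0 of the 4 genes of the ER arm were. Of the genes of like level, 52.6% were higher there. Control replicate 1 exceeded control replicate 2 by a log2 ratio of 0.39 for Chac1, 0.34 for Trib3, 0.24 for Atf4, 0.24 for Ddit4 and 0.22 for Asns. Ddit3 was the exception in that arm, at -0.01. In the ER arm the log2 ratios were -0.17 for Hspa5, -0.17 for Hsp90b1, -0.12 for Herpud1 and -0.07 for Xbp1. Among the 5536 genes of like level, 98.5% had a smaller difference between the controls than Chac1 and 97.6% a smaller one than Trib3. This share was 91.1% for Ddit4, 90.6% for Atf4, 88.7% for Asns and 7.53% for Ddit3. In the ER arm it was 80.7% for Hsp90b1, 80.3% for Hspa5, 65.2% for Herpud1 and 43.1% for Xbp1. The EDA-A2 libraries lay closer together, with an SD of 0.09 for the log2 ratio over the genes of like level against 0.14 for the control libraries. All of the 10 but Hsp90b1 were higher in EDA-A2 replicate 2 than in replicate 1, as were 58.2% of the genes of like level. These are differences between libraries of 1 group, so no test applies and their cause was not tested.

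Several groups of the wider pathway also differed between the control libraries, and others hardly did. Lists of 147 further genes, sorted by role and not holding the 10, were set up, and 145 of these genes were tested, while Ern2 and Derl3 were at 0 in all 4 libraries. All 20 cytosolic aminoacyl-tRNA synthetases, a group known as targets of ATF4, were higher in control replicate 1 than in control replicate 2, with log2 ratios of 0.03 to 0.37 and a median of 0.20. Of 19 genes of amino acid synthesis and transport 18 were higher there, with a median of 0.31, and the exception, Slc7a3, had only 5.15 and 21.2 normalised counts. Mitochondrial chaperones and relay genes were higher in 9 of 10. By contrast, 3 of 23 other ER chaperones and folding enzymes were higher in control replicate 1, with a median of -0.10. The lists of ER-associated degradation (7 of 21 higher, median -0.02) and of ER entry and export (8 of 20 higher, median -0.02) lay near the median of all genes tested, -0.00, of which 49.9% were higher in control replicate 1. Phgdh, the entry enzyme of serine synthesis, had 9478 and 7426 counts in control and 6677 and 7039.6 after EDA-A2, and Mthfd2, of mitochondrial folate metabolism, had 6642 and 5216 in control and 5175 and 5553 after EDA-A2. In both, as in Asns and Trib3, control replicate 1 stood apart and control replicate 2 lay near the treated libraries or between them.

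**Figure D3:**
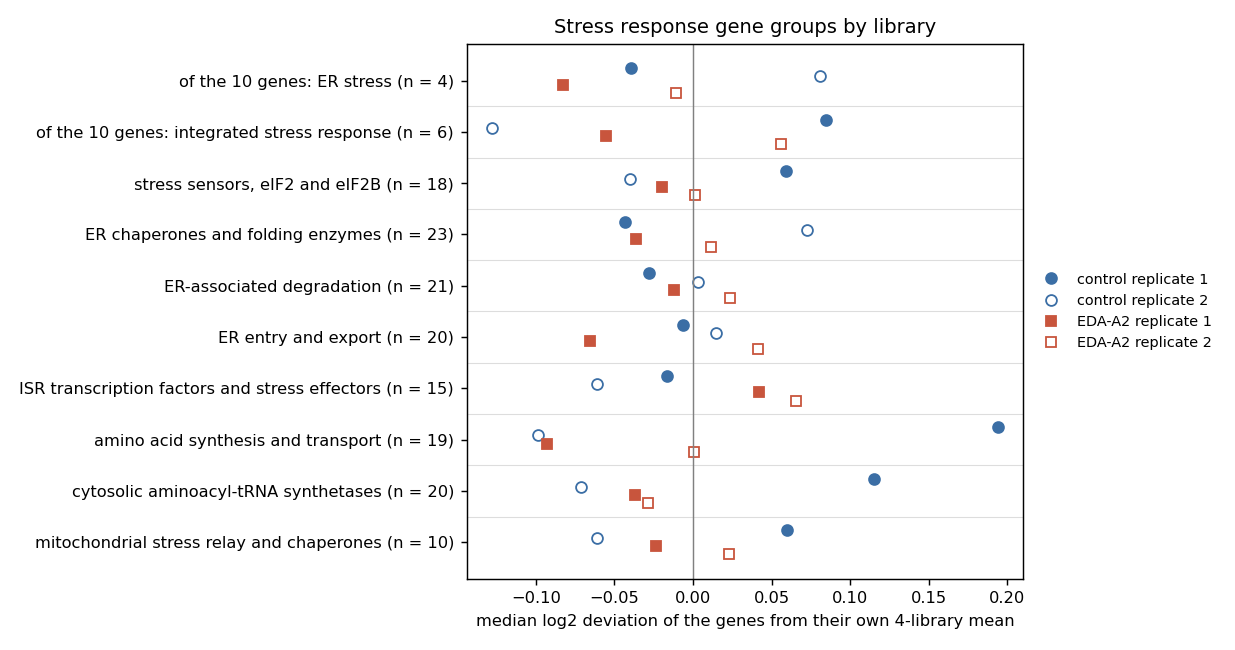
Median log2 deviation of the genes of each group from their own mean over the 4 libraries (x axis), 1 point per library, with n genes per group. Control replicate 1 lies at 0.19 for amino acid synthesis and transport, where the other libraries lie between -0.10 and 0.00, whereas for ER chaperones control replicate 2 lies highest, at 0.07.

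For Chac1, Asns, Trib3 and Atf4, leaving out 1 control library moved the estimate more than a change of scaling, filter or tool did. The log2 fold change of Chac1 was 0.43 without control replicate 1 and 0.03 without control replicate 2. That of Asns was -0.09 without control replicate 1 and -0.31 without control replicate 2. That of Trib3 went from -0.30 without control replicate 2 to 0.05 without control replicate 1, and that of Atf4 was -0.05 without control replicate 2. Hsp90b1 was at -0.08 without control replicate 1, Herpud1 at 0.04 and Ddit4 at -0.00 without control replicate 2, and Ddit3 at 0.02 without EDA-A2 replicate 1. Hspa5, Xbp1, Asns and Chac1 had the same sign in all 12 alternatives. None of the 10 genes was called under another scaling, filter, dispersion setting or tool, or with a replicate block. The lowest adjusted p over these alternatives was 0.141 for Asns and 0.172 for Chac1, both by edgeR with the replicate block. A fit without 1 library leaves a single library in a group, so the lack of calls there says little.

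**Figure D4:**
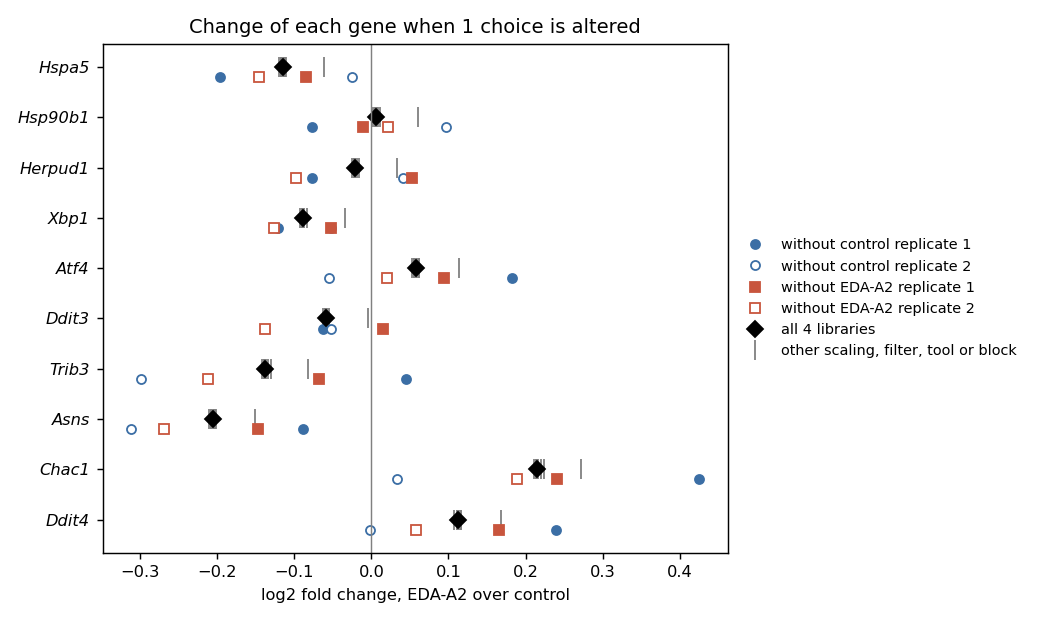
Log2 fold change of the 10 genes with all 4 libraries (black diamonds), without each library in turn (coloured points) and under other scalings, filters, tools or a replicate block (grey ticks). The points without 1 control library span 0.03 to 0.43 for Chac1 and -0.31 to -0.09 for Asns, and the signs of 6 genes depend on the choice.

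Beyond the 10 genes, 6 of the 145 other pathway genes passed the test, 3 higher and 3 lower, beside 4.57% of all genes tested. Of these, 5 were in a list of 15 other genes, which joins transcription factors of the integrated stress response with stress effectors more widely. In it 2 rose and 3 fell, and the median log2 fold change was 0.11. At an unadjusted p under 0.05 by edgeR this list had 8 of 15 genes, against 15.6% of all genes tested. Of the genes at or above the level of Chac1 the share was 21.1%. The list was written with earlier results of these data known. Nfe2l1, a membrane-bound factor of the ER that drives proteasome genes, rose from 23694 and 23201 counts to 32864 and 34446, a log2 fold change of 0.52 ± 0.07 with an adjusted p of 0.000302 by edgeR. Fgf21, a hormone that muscle is known to release under mitochondrial stress, rose from 2825 and 2959 counts to 3771 and 4156, a log2 fold change of 0.45 ± 0.07 with an adjusted p of 0.00151. Both had groups far apart and controls that hardly differed. The transcription factors Atf5 and Atf3, both downstream of ATF4, fell. Atf5 had 3691 and 3034 counts in control and 2484 and 2577 after EDA-A2, a log2 fold change of -0.41 ± 0.09 with an adjusted p of 0.0111. Atf3 had 593 and 508 counts in control and 403 and 407 after EDA-A2, a log2 fold change of -0.44 ± 0.11 with an adjusted p of 0.0296. Stc2, a secreted glycoprotein, fell from 1318 and 1067 counts to 934 and 909, a log2 fold change of -0.37 ± 0.10 with an adjusted p of 0.0441. These 3 genes were higher in control replicate 1 than in control replicate 2, as were 11 of the 15 genes of this list. Without control replicate 1 the log2 fold changes were -0.26 for Atf5, -0.33 for Atf3 and -0.21 for Stc2. The DESeq2 Wald test gave adjusted p-values of 0.0624 for Atf3 and 0.0609 for Stc2 and still called Atf5, Fgf21 and Nfe2l1. Over the 12 alternatives Nfe2l1 was called in 10, Fgf21 and Atf5 each in 9, Atf3 in 5 and Stc2 in 4. When either control library was left out, calls were lost across the whole table, so their loss there is not particular to these 6 genes.

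Of the ER groups, only Ero1a passed the test among the 23 other chaperones and folding enzymes. Ero1a, the oxidase that drives disulphide bond formation, rose from 77982 and 75371 counts to 89754 and 95577, a log2 fold change of 0.27 ± 0.07 with an adjusted p of 0.0421. Ero1a was called in 6 of the 12 alternatives, and not with no filter or with at least 10 counts in every library. It was also not called with any 1 library left out, where a group holds a single library. Its log2 fold change was then 0.23 to 0.32. The list as a whole had a median of -0.04, with 8 genes above 0 and 15 below. Its other genes with the smallest p-values were below 0 and not called: Sdf2l1 at -0.30 ± 0.10 with an adjusted p of 0.11, Hyou1 at -0.13, Manf at -0.16 and Pdia6 at -0.12. The sensors and translation factors had 0 of 18 called, with Ern1, which encodes IRE1, at 0.12, Atf6 at -0.10 and Eif2ak2, which encodes PKR, at 0.24 ± 0.10 with an adjusted p of 0.241. Eif2b4 and Eif2b5, subunits of the exchange factor eIF2B, were at -0.26 ± 0.10 with an adjusted p of 0.216 and at -0.12. ER-associated degradation had 0 of 21 called and a median of 0.03, with the ubiquitin ligase Syvn1 at -0.17 and the mannosidase-like Edem2 at 0.16. The genes of ER entry and export had 0 of 20 called and a median of -0.03, from the translocon subunit Sec61g at -0.14 to the coat protein Sec23b at 0.20 among those named. For counts of 0 such as these, the counts at an unadjusted p under 0.05 by edgeR were 2, 2 and 1, none above the 15.6% of all genes tested, and the DESeq2 Wald test called 0 in each of these lists.

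The remaining groups, of amino acid supply, tRNA charging and mitochondrial stress, had no gene called by edgeR in the fit without a replicate block. Of all genes tested 7665 of 15173 were below 0, and of those of like level 3091 of 5536. Of 19 genes of amino acid synthesis and transport 15 were below 0, with a median of -0.11, which became 0.04 without control replicate 1 and -0.23 without control replicate 2. Phgdh had the smallest p of the list, at -0.30 ± 0.09 with an adjusted p of 0.0892, Psat1 of the same pathway was at -0.18, and the cystine transporter Slc7a11 was at 0.24. Of 20 synthetases 15 were below 0, with a median of -0.06 that became 0.05 without control replicate 1 and -0.15 without control replicate 2, and the examples were Mars1 at -0.22, Sars1 at -0.18 and Vars1 at 0.11. Of 10 mitochondrial genes 6 were below 0, a share near that of all genes, with the protease Oma1, which relays mitochondrial stress, at 0.21 ± 0.12 and the chaperone Hspa9 at -0.08. At an unadjusted p under 0.05 these lists had 2, 2 and 0 genes by edgeR, none above the 15.6% of all genes tested, and the DESeq2 Wald test called 0 in each.

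**Figure D5:**
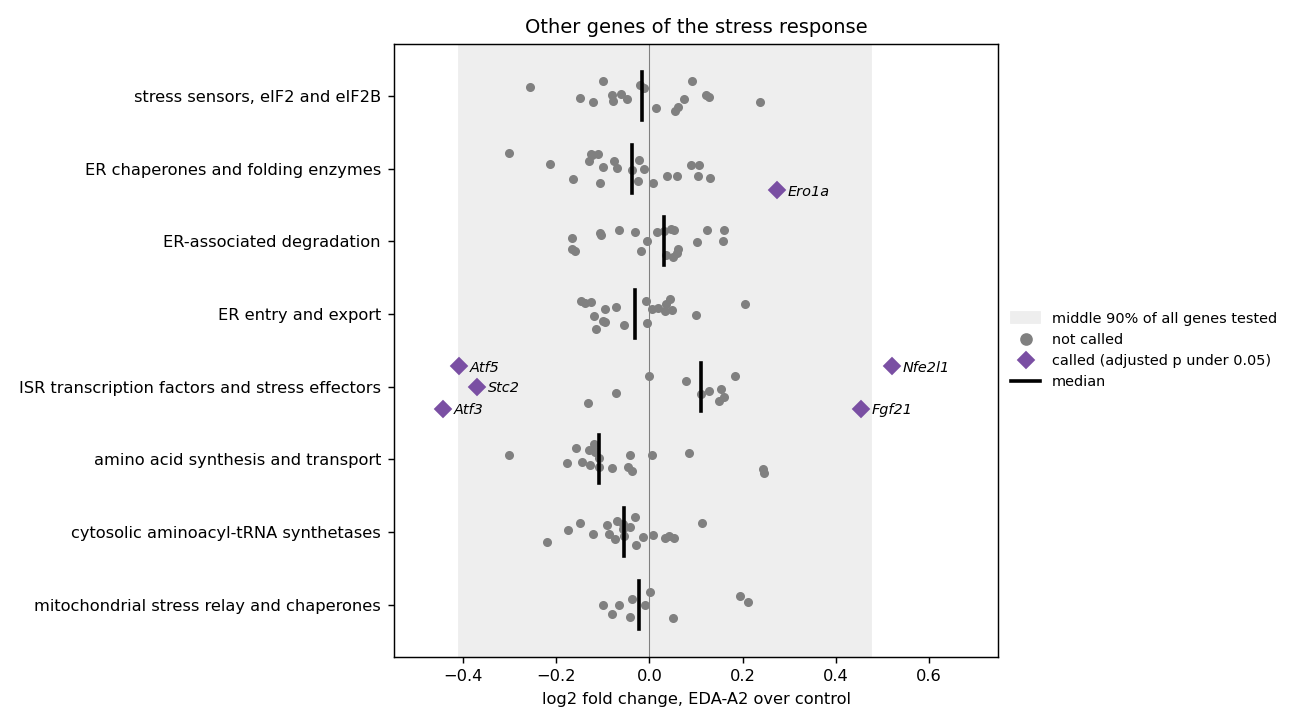
Log2 fold change, EDA-A2 over control, of the other genes of the stress response by group (points), with the group median (black bar), the genes called (purple) and the middle 90% of all genes tested (grey band, -0.41 to 0.48). Nfe2l1, at 0.52, and Atf3, at -0.44, lie farthest out, and the medians lie between -0.11 and 0.11.

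The profiles of 3 of the 10 genes over the 4 libraries were compared with those of 9466 genes, by the Euclidean distance of log2 values centred on their mean, which describes likeness over 4 points only. Nearest to Asns were Cyb5r1, Hmox1 and Plxna3, with distances of 0.0064, 0.019 and 0.029. Nearest to Chac1 were H2-D1, Slc4a4 and Eif2ak2, with distances of 0.052, 0.061 and 0.063. Nearest to Hspa5 were Klc4, Faap20 and Btbd2, with distances of 0.014, 0.015 and 0.017.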

How the data were processed

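Gene counts of 4 mouse primary myotube libraries were analysed. The authors deposited a table for each library with raw counts of read pairs by Ensembl gene, neither normalized nor filtered nor pooled. Their processing notes name FastQC 0.11.9, MultiQC 1.12, Trim Galore 0.6.5, STAR 2.7.3a, HTSeq 0.11.1 and GRCm39. The annotation release and strand option are not given in the sources used here. HTSeq's summary lines (no feature, 6.68% to 7.40% of pairs; ambiguous, 0.946% to 0.986%; not unique, 4.56% to 4.76%) stayed out of library sizes and tests. GENCODE vM39 matched 52610 of 53647 genes.

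Groups and replicate numbers came from the sample titles. EDA-A2 was compared with control in R 4.3.3 with edgeR 4.0.16: TMM scaling (factors of 0.972 to 1.026), filterByExpr (at least 10 counts, at least 15 in total) and the quasi-likelihood test with a single term for group. Benjamini-Hochberg adjustment ran over all genes tested. The SE was taken from the log2 fold change and the F statistic as the first over the root of the second, and 95% intervals use the t distribution of the fit. Normalised counts are scaled to the mean library, and TPM uses exon length. Floors cover counting error only. The chi-square per gene between libraries was 9.33 within control and 4.45 within EDA-A2, so the libraries of a group differed by more than sampling noise.

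Alternatives were scaling by total counts, upper quartiles or DESeq2 size factors, filters of none or of 10 counts per library, robust dispersion, the Wald test of DESeq2 1.42.0, a replicate block and leaving out each library. The steps were tested on simulated data. The members and lists were chosen with earlier results of these data known. Besides the 10 genes and those called, the text names up to 5 genes per list with the smallest p-values, and the 3 genes nearest in profile to Asns, Chac1 and Hspa5. Slc7a3 was named after its values were seen.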

Additional observations from a re-analysis of the deposited data

How the results depend on the processing

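None of the 10 genes was called by edgeR or DESeq2 under any of the 12 alternatives. The lack of calls says little where 1 library was left out, since a group then holds a single library. The genes called over the whole table, 371 higher and 323 lower, came to 64 and 22 with no filter, where 25545 genes were tested, and to 485 higher and 194 lower with total counts. Without 1 library in turn they ranged from 0 to 238 higher and from 0 to 170 lower, with 0 in both directions when either control library was left out, where the lone control is assumed to vary like the EDA-A2 libraries. Of the other pathway genes, 3 higher and 3 lower, no filter left 1 and 0, total counts and DESeq2 each left 1 lower, and leaving out 1 library left 0 to 2 higher and 0 to 1 lower. The median of the 10 genes ranged from -0.11 to 0.0026 without 1 library.

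Signs turned for values that were not called. Leaving out 1 library in turn gave log2 fold changes of -0.076 to 0.097 for Hsp90b1, -0.098 to 0.053 for Herpud1, -0.055 to 0.18 for Atf4, -0.14 to 0.015 for Ddit3, -0.30 to 0.045 for Trib3 and -0.0021 to 0.24 for Ddit4. Of the other genes, it gave -0.32 to 0.014 for Manf, -0.31 to 0.042 for Mthfd2, -0.33 to 0.033 for Mthfd1l, -0.059 to 0.63 for Slc7a11, -0.24 to 0.0047 for Eprs1, -0.32 to 0.048 for Wars1, -0.18 to 0.031 for Hspa9 and -0.15 to 0.027 for Dnaja3. With total counts Herpud1 was at 0.033. The cause was not tested.

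The replicate numbers share no stated batch or animal, and same-numbered libraries deviated together with a correlation of 0.06 over 15173 genes. A replicate block gave 537 higher and 529 lower genes, and among the pathway genes it added Phgdh, at an adjusted p of 0.0302.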
